A study of Mus musculus with 10 samples.

Results

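The genes described here are the IL-4 receptor, its kinase and transcription factor, and a set of genes tied to alternative activation: *Il4ra*, *Il13ra1*, *Il2rg*, *Jak3*, *Stat6*, *Retnla*, *Irf4*, *Socs1* and *Nfil3*. They were taken by symbol from a table of raw read counts, and all 9 were among its 55453 genes. Of these 9, 8 passed the filter on low counts that 14481 genes of the table passed, and *Retnla* did not. RNA came from CD45int CD11b+ cells sorted from the hippocampi of female 3xTg mice over 15 months of age, in 10 libraries. The PBS group (5 libraries, PBS 1 to PBS 5) received phosphate-buffered saline. The GA group (5 libraries, GA 1 to GA 5) received 0.1 mg per injection of glatiramer acetate, a random copolymer of amino acids used against multiple sclerosis. Injections were subcutaneous and weekly for about 8 weeks, with an extra injection in the first week. Both groups carry the same mutated human transgenes, *APP* and *MAPT* among them, driven by the neuronal Thy1.2 promoter. Non-transgenic mice were not analysed here, so the values show GA against PBS on the 3xTg background only. Nothing in the labels says that each library came from a separate animal, and p-values measure the spread between these libraries.

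IL-4 binds the IL-4 receptor alpha chain, which then joins either the common gamma chain (type I receptor) or the IL-13 receptor alpha 1 chain (type II receptor, which also binds IL-13). Janus kinases on the chains phosphorylate STAT6, which enters the nucleus and switches on genes of alternative activation, a macrophage state tied to repair and to type 2 immunity. In mouse macrophages the secreted protein encoded by *Retnla* is among the best known readouts of that state, and microglia express the receptor.

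Totals ran from 32332185 to 38764643 reads per library, and levels below are in CPM, the reads of a gene per 1000000 reads of the library after TMM scaling. No gene passed an adjusted p of 0.05 in edgeR's quasi-likelihood test (0 of 14481), while 833 (5.75%) had an unadjusted p under 0.05. limma-voom also called 0 genes, and DESeq2 with its defaults called 2, neither of them among the 9. The 10 homeostatic microglial markers summed to 50951 to 60820 CPM, with *P2ry12*, a purinergic receptor of microglia, at 6885 ± 316 CPM in PBS and 6315 ± 505 CPM in GA (SD, n = 5). Neutrophil markers were also present and were not even between the groups. Their sum was 170, 45.2, 477, 304 and 398 CPM in PBS 1 to PBS 5, and 45.5, 187, 18.4, 30.0 and 114 CPM in GA 1 to GA 5. All 10 neutrophil markers were lower on average in GA, 8 of them with an unadjusted p under 0.05 and 0 called. The PBS libraries share the title prefix 388, while GA 1 and GA 2 have 394 and GA 3 to GA 5 have 400. Prefix and treatment therefore cannot be told apart. In bulk RNA, fewer cells of a type and less RNA per cell cannot be told apart either.

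Among the 8 genes tested, 7 were higher on average in GA and 1 was lower, with a median log2 fold change of 0.20 beside 0.000199 for all genes tested. None was called by edgeR (0 of 8, with 0% of all genes tested called), and their adjusted p-values lay between 0.847 and 0.980. An unadjusted p under 0.05 was reached by 2 of 8 (25%), *Nfil3* and *Jak3*, beside 5.75% of all genes tested. In none of the 8 did the GA and PBS libraries separate completely, which happened for 0.891% of all genes tested.

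**Figure D1:**
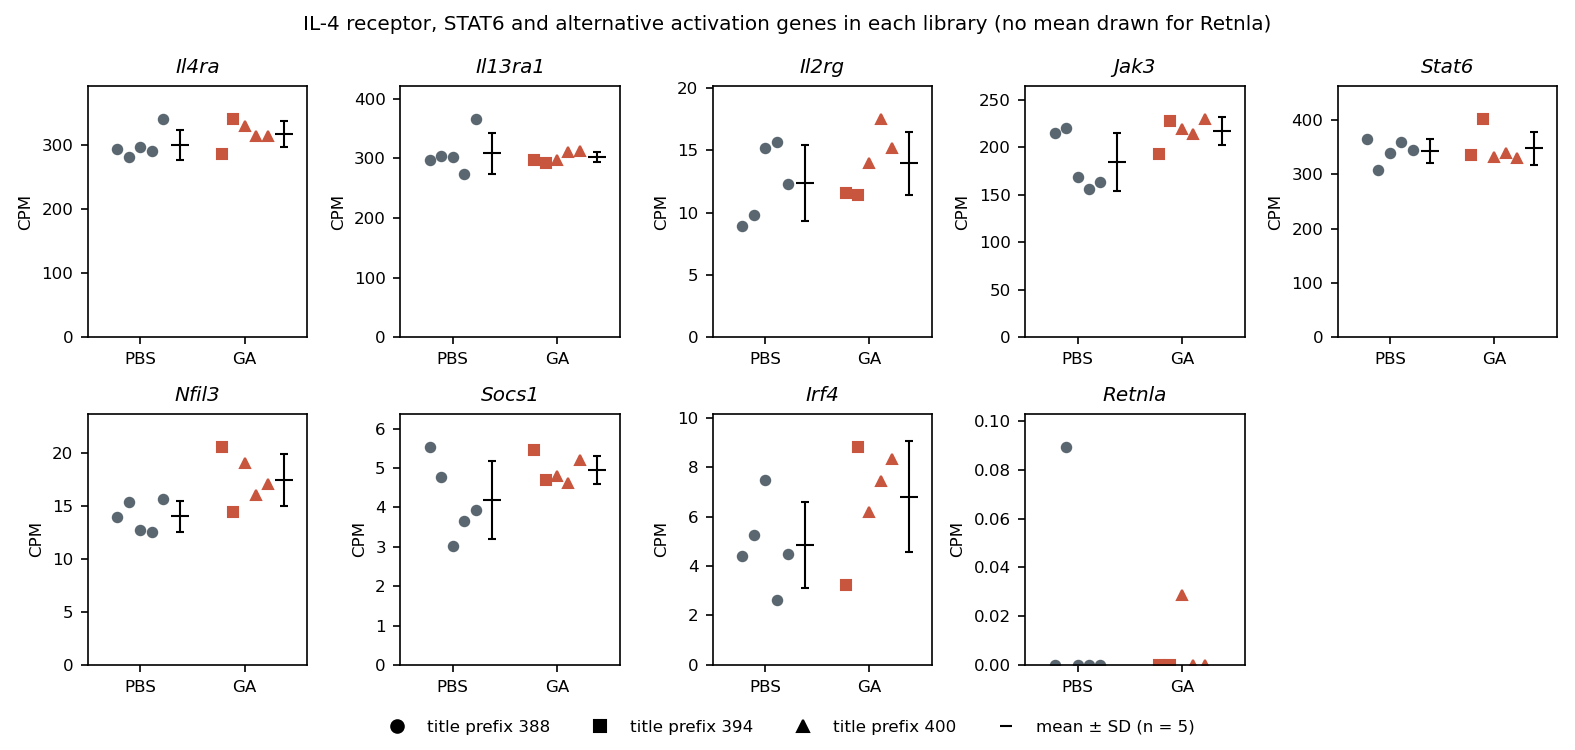
Level of each of the 9 genes in CPM (vertical axes, starting at 0) in the PBS and GA libraries. Each point is a library, its shape gives the title prefix, and the bar beside each group is the mean ± SD (n = 5), which is left out for *Retnla*. The groups overlap in every panel, least for *Nfil3*, where 4 of 5 GA points lie above every PBS point.

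*Il4ra* encodes the chain that binds IL-4 and is shared by both receptor types. It lies on chromosome 7 (GRCm38, 125552120 to 125579474, plus strand; ENSMUSG00000030748.9) and was counted 9372 to 12215 times per library. In PBS 1 to PBS 5 its level was 294, 281, 297, 290 and 341 CPM. In GA 1 to GA 5 it was 286, 340, 330, 315 and 314 CPM. The groups overlapped at both ends, since PBS 5 was the highest of the 10 libraries and GA 1 lay below 4 PBS libraries. The means were 301 ± 23.4 and 317 ± 20.5 CPM (SD, n = 5). The log2 fold change was 0.08 ± 0.07 (SE), with an edgeR adjusted p of 0.931. Without PBS 5 the log2 fold change was 0.13, with an unadjusted p of 0.0455 and an adjusted p of 0.634 in edgeR. Without GA 2 it was 0.05, with an unadjusted edgeR p of 0.493.

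*Il13ra1* encodes the chain that completes the type II receptor, and lies on the X chromosome (36112110 to 36171259, plus strand; ENSMUSG00000017057.9). Its PBS levels were 297, 304, 302, 273 and 367 CPM in PBS 1 to PBS 5. Its GA levels were 298, 293, 298, 311 and 313 CPM in GA 1 to GA 5. All 5 GA libraries fell inside the PBS range, and the GA spread was the narrower, with a coefficient of variation of 2.98% against 11.2%. This spread was not tested, and PBS 4 and PBS 5 set the PBS range. The log2 fold change was -0.03 ± 0.07, with an edgeR adjusted p of 0.975. Its sign turned without PBS 5, to 0.04. PBS 5 also had the highest sum of homeostatic microglial markers, at 60820 CPM beside at most 56810 CPM elsewhere. On a log2 scale that sum had a Pearson r of 0.78 with *Il13ra1* (Spearman rho 0.32) and of 0.49 with *Il4ra* (Spearman rho 0.24). Its part in the level of either gene was not tested.

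*Il2rg* encodes the common gamma chain, the partner in the type I receptor and in the receptors for IL-2, IL-7, IL-9, IL-15 and IL-21. It lies on the X chromosome (101264378 to 101268255, minus strand; ENSMUSG00000031304.18) and was counted only 328 to 669 times per library. PBS levels were 8.89, 9.79, 15.2, 15.7 and 12.3 CPM in PBS 1 to PBS 5, against 11.6, 11.4, 14.0, 17.5 and 15.1 CPM in GA 1 to GA 5. Only GA 4 lay above the PBS range, and both GA libraries of prefix 394 lay below 3 PBS libraries. The means were 12.4 ± 3.07 and 13.9 ± 2.55 CPM, giving a log2 fold change of 0.17 ± 0.18 with an edgeR adjusted p of 0.940. The GA libraries of prefix 394 averaged 11.5 CPM and those of prefix 400 averaged 15.6 CPM, so the log2 fold change turned to -0.09 with prefix 394 alone and was 0.34 with prefix 400 alone. It was 0.08 without PBS 1 or without GA 4, 0.10 without PBS 2, 0.26 without PBS 3 and 0.27 without PBS 4. The summed level of 8 border-associated macrophage markers, which ranged from 45.8 to 255 CPM in PBS and from 49.9 to 192 CPM in GA, was highest in PBS 4 and GA 4, the libraries with the most *Il2rg* in each group. All 8 of these markers were detected. Over the 10 libraries *Il2rg* had a Pearson r of 0.71 with this sum, of 0.63 with the monocyte markers and of 0.81 with 12 markers of oligodendrocytes, astrocytes, neurons and endothelium, 7 of them past the filter, which summed to 85.7 to 118 CPM in PBS and 86.2 to 116 CPM in GA. The part of these markers in the *Il2rg* level was not tested.

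The 2 receptor types differ only in the second chain, so the ratio of *Il2rg* to *Il13ra1* within a library compares their partners without any library scaling. Per kilobase of merged exons (the length of all annotated exons of a gene, overlaps counted once), *Il13ra1* exceeded *Il2rg* 11.2- to 21.5-fold in every one of the 10 libraries, or 7.80- to 14.9-fold if exon bases that *Il2rg* shares with another gene are left out of its length. The log2 ratio of *Il2rg* to *Il13ra1* was -4.43, -4.32, -3.68, -3.49 and -4.27 in PBS 1 to PBS 5. In GA 1 to GA 5 it was -4.05, -4.04, -3.77, -3.51 and -3.73. The GA libraries lay inside the PBS range. The group means were -4.04 ± 0.42 and -3.82 ± 0.23 (SD, n = 5), and the difference of 0.21 gave a two-sided exact permutation p of 0.349. The smallest p that 5 libraries against 5 allow is 0.00794. Without 1 library the difference ran from 0.12 to 0.35.

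*Jak3* encodes the Janus kinase that sits on the common gamma chain. It lies on chromosome 8 (71676296 to 71690575, plus strand; ENSMUSG00000031805.17) and was counted 5020 to 8940 times per library. The PBS libraries PBS 1 to PBS 5 held 215, 220, 169, 155 and 163 CPM. The GA libraries GA 1 to GA 5 held 193, 228, 219, 214 and 229.8 CPM. The PBS values fell into a high pair (PBS 1 and PBS 2) and a low trio, and the GA values all lay above the low trio, with 2 of them above the high pair. Means were 184 ± 30.6 and 217 ± 14.8 CPM (SD, n = 5), and the log2 fold change was 0.23 ± 0.10, with an edgeR p of 0.0361 before and 0.854 after adjustment. With library totals in place of TMM the unadjusted edgeR p was 0.0524. It was 0.223 with prefix 394 alone and 0.0472 with prefix 400 alone. The two-sided exact permutation p was 0.0873. It was 0.0476 without PBS 2 and between 0.0635 and 0.175 without any other 1 library. In edgeR fits that each left out 1 library, the unadjusted p stayed under 0.05 in 4 of 10. It was 0.0844, 0.0889 and 0.0799 without PBS 3, PBS 4 and PBS 5, and 0.0719, 0.0559 and 0.0767 without GA 2, GA 3 and GA 5. The low trio of PBS libraries was also the trio with the highest neutrophil marker sums (304 to 477 CPM). Over the 10 libraries *Jak3* and that sum, both on a log2 scale, had a Pearson r of -0.63, a description of libraries that also differ in treatment. With the summed monocyte markers (42.6 to 168 CPM in PBS, 48.0 to 100 CPM in GA) r was -0.60. A part of either cell type in the *Jak3* values was not tested.

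*Stat6* encodes the transcription factor at the end of this pathway, and lies on chromosome 10 (127642986 to 127660957, plus strand; ENSMUSG00000002147.18). It was counted 10321 to 14341 times per library, the highest total of the 9 genes. Levels were 365, 308, 339, 359.9 and 344 CPM in PBS 1 to PBS 5. They were 335, 402, 333, 339.8 and 329.97 CPM in GA 1 to GA 5. GA 2 stood above all other libraries and the other 4 GA libraries lay inside the PBS range, all of them below the PBS median. Means were 343 ± 22.4 and 348 ± 30.5 CPM, a log2 fold change of 0.02 ± 0.07 with an edgeR adjusted p of 0.980. Without GA 2 it was -0.04, and without PBS 2 it was -0.02. With prefix 394 alone it was 0.11, and with prefix 400 alone -0.03. Immediate early genes, whose sum is sensitive to handling of the tissue, were also highest in GA 2, at 1549 CPM beside 906 to 1343 CPM in the other 9 libraries. Their part in the *Stat6* value was not tested.

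**Figure D2:**
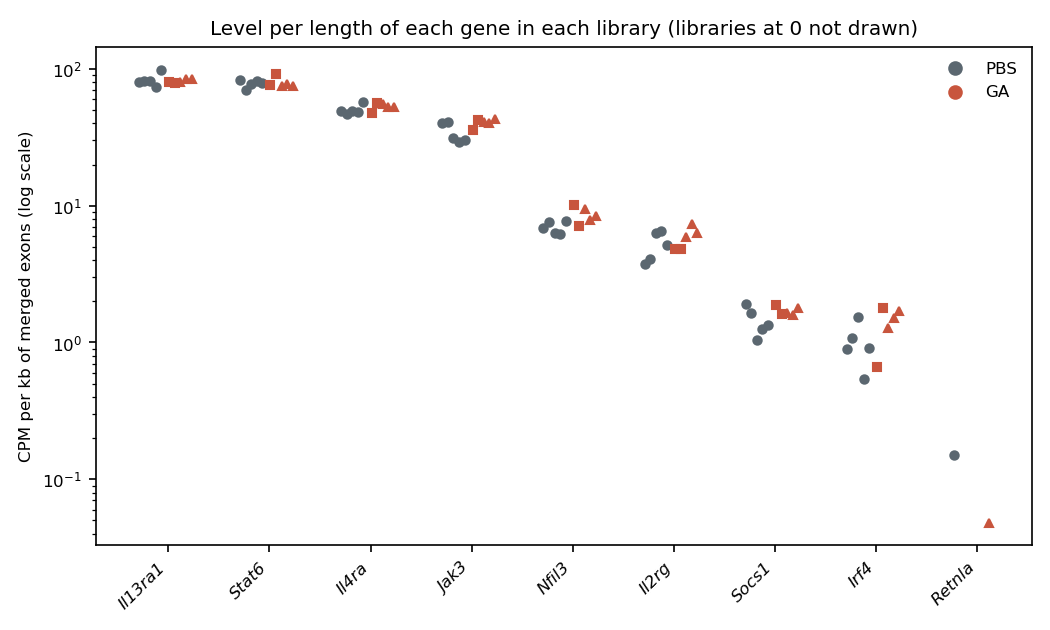
CPM per kilobase of merged exons (vertical axis, log scale) of the 9 genes in each library, ordered by their mean. Point shapes give the title prefix (circle 388, square 394, triangle 400), and libraries at 0 are not drawn. *Il13ra1* and *Stat6* lead, at means of 82.3 and 78.5, and *Retnla*, with reads in 2 libraries, lies below 1.

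Levels of different genes can only be set side by side per length. On the scale of CPM per kilobase, the means over the 10 libraries were 82.3 for *Il13ra1*, 78.5 for *Stat6*, 51.5 for *Il4ra* and 37.5 for *Jak3*. *Nfil3* followed at 7.78, *Il2rg* at 5.51, *Socs1* at 1.57 and *Irf4* at 1.19, and *Retnla* came last at 0.0198. Neighbours in this order were separated in all 10 libraries and without overlap of their ranges, with 3 exceptions. *Il13ra1* exceeded *Stat6* in 7 of 10 libraries, *Nfil3* exceeded *Il2rg* in 8 (in 6 without the shared bases of *Il2rg*), and *Socs1* exceeded *Irf4* in 8. The cells thus held the receptor chains, kinase and transcription factor at far higher levels per length than *Retnla*, in both groups.

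*Retnla* encodes a secreted resistin-like protein that IL-4 and STAT6 strongly induce in macrophages, and lies on chromosome 16 (48842551 to 48844461, plus strand; ENSMUSG00000061100.4). It was counted 3 times in PBS 2, once in GA 3 and not at all in the other 8 libraries. A count of 0 allows up to 3 counts, which is 0.0771 to 0.0929 CPM in these libraries, and such a floor covers counting error only. No fold change is given, because both groups lay at or under that floor. The exact permutation p was 1.

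*Irf4* encodes a transcription factor of the interferon regulatory family that takes part in alternative macrophage polarisation. It lies on chromosome 13 (30749226 to 30766976, plus strand; ENSMUSG00000021356.10). Its levels were 4.42, 5.26, 7.48, 2.63 and 4.47 CPM in PBS 1 to PBS 5, against 3.23, 8.84, 6.21, 7.44 and 8.33 CPM in GA 1 to GA 5. It varied most among the well-counted genes here (85 to 324 reads per library), with coefficients of variation of 36.2% in PBS and 32.8% in GA. PBS 3 lay as high as the middle of the GA group, GA 1 lay below 4 PBS libraries, and 2 GA libraries exceeded all PBS libraries. The log2 fold change was 0.49 ± 0.29, the largest of the 8, with an edgeR p of 0.110 before and 0.895 after adjustment. The two-sided exact permutation p was 0.198. It was 0.0476 without GA 1 and between 0.0952 and 0.397 without any other 1 library. In edgeR fits that left out 1 library the unadjusted p was under 0.05 in 2 of 10. The edgeR log2 fold change was 0.70 without PBS 3 (unadjusted p = 0.0291), 0.67 without GA 1 (unadjusted p = 0.0193) and 0.34 without PBS 4. With the GA libraries of prefix 394 alone it was 0.32 (edgeR, unadjusted p = 0.456), and with prefix 400 alone 0.60 (edgeR, unadjusted p = 0.0519).

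*Socs1* encodes a suppressor of cytokine signalling that cytokines induce and that then restrains the Janus kinases. It lies on chromosome 16 (10782240 to 10785536, minus strand; ENSMUSG00000038037.5) and was counted 99 to 212 times per library. PBS levels were 5.54, 4.78, 3.02, 3.65 and 3.94 CPM in PBS 1 to PBS 5. GA levels were 5.45, 4.68, 4.79, 4.61 and 5.19 CPM in GA 1 to GA 5. As for *Jak3*, PBS 1 and PBS 2 lay level with the GA libraries and PBS 3 to PBS 5 lay below all of them. Means were 4.19 ± 0.987 and 4.95 ± 0.361 CPM (SD, n = 5), and the log2 fold change was 0.24 ± 0.19, with an edgeR adjusted p of 0.917. It was 0.14 without PBS 3 and 0.36 without PBS 1. The two-sided exact permutation p was 0.151. It was 0.0476 without PBS 1 and between 0.111 and 0.302 without any other 1 library. Over the 10 libraries, on a log2 scale, *Socs1* had a Pearson r of 0.76 with *Jak3*, of -0.62 with the neutrophil marker sum and of -0.72 with the summed monocyte markers. These are descriptions of the same libraries and carry no test.

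*Nfil3* encodes a basic leucine zipper transcription factor that IL-4 induces and that acts in lymphocyte and dendritic cell development. It lies on chromosome 13 (52967209 to 52981073, minus strand; ENSMUSG00000056749.7) and was counted 405 to 689 times per library. PBS levels were 13.9, 15.4, 12.7, 12.5 and 15.7 CPM in PBS 1 to PBS 5. GA levels were 20.6, 14.4, 19.1, 16.1 and 17.04 CPM in GA 1 to GA 5. Every GA library but GA 2 lay above every PBS library, which is the nearest to separation among the 9 genes. Means were 14.1 ± 1.46 and 17.5 ± 2.46 CPM (SD, n = 5), and the log2 fold change was 0.31 ± 0.12. Its edgeR p was 0.0216 before adjustment and 0.847 after, so it was not called. The two-sided exact permutation p was 0.0317, the only one under 0.05 among the 9 genes. The GA libraries of prefix 394 averaged 17.5 CPM and those of prefix 400 averaged 17.4 CPM. With prefix 394 alone the log2 fold change was 0.32, with an unadjusted edgeR p of 0.101. With prefix 400 alone it was 0.31, with an unadjusted edgeR p of 0.0321. In edgeR fits that left out 1 library the log2 fold change ran from 0.24 to 0.37 and the unadjusted p stayed under 0.05 in 7 of 10. It was 0.0507 without PBS 3, 0.0682 without GA 1 and 0.0519 without GA 3. The permutation p was 0.0635 without any 1 of PBS 1, PBS 3, PBS 4, GA 1, GA 3 and GA 5. Without GA 2, the library that overlapped, it was 0.0159, and the groups then separated by construction, as those of 2.39% of all genes tested did without GA 2.

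**Figure D3:**
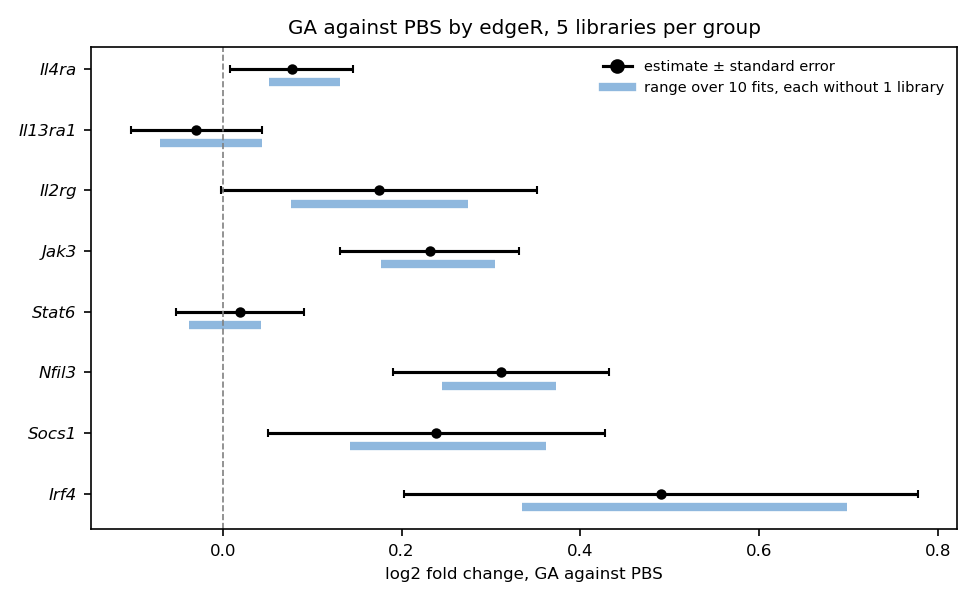
Log2 fold change of GA against PBS (horizontal axis) from edgeR for the 8 genes tested, with points and lines for the estimate ± SE (5 libraries per group). Blue bars span the estimates of 10 fits that each left out 1 library. The bars of *Il13ra1* and *Stat6* cross 0, and those of the other 6 genes lie right of 0.

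*Nfil3* also varied with the neutrophil marker sum, with a Pearson r of -0.74 on a log2 scale over the 10 libraries. GA 3, with the lowest sum (18.4 CPM), held 19.1 CPM of *Nfil3*, and PBS 3, with the highest (477 CPM), held 12.7 CPM. Within GA, GA 2 had the highest sum (187 CPM) and the lowest *Nfil3* (14.4 CPM). Within PBS, PBS 5 had the second highest sum (398 CPM) and the highest *Nfil3*. With the monocyte markers r was -0.72, and with the border-associated macrophage markers it was -0.54. With the immediate early genes, whose sum was also highest in GA 2 (1549 CPM), it was -0.52. A part of any of these lists in the *Nfil3* values was not tested. Lymphocyte markers summed to 16.6 to 27.6 CPM, with only 2 of 12 past the filter. Of 8 mast cell, basophil and eosinophil markers, 6 were at 0 in every library and *Epx*, which encodes eosinophil peroxidase, was counted 3 times in all. The eighth, *Siglecf*, a sialic acid receptor listed here as an eosinophil marker, was counted 1629 to 2954 times per library. It stood at 63.5 ± 13.4 CPM in PBS and 69.7 ± 11.9 CPM in GA (SD, n = 5). *Nfil3* had a Pearson r of 0.59 (Spearman rho 0.61, 10 libraries) with the sum of this list, nearly all of it *Siglecf*. Its part in the *Nfil3* values was not tested.

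**Figure D4:**
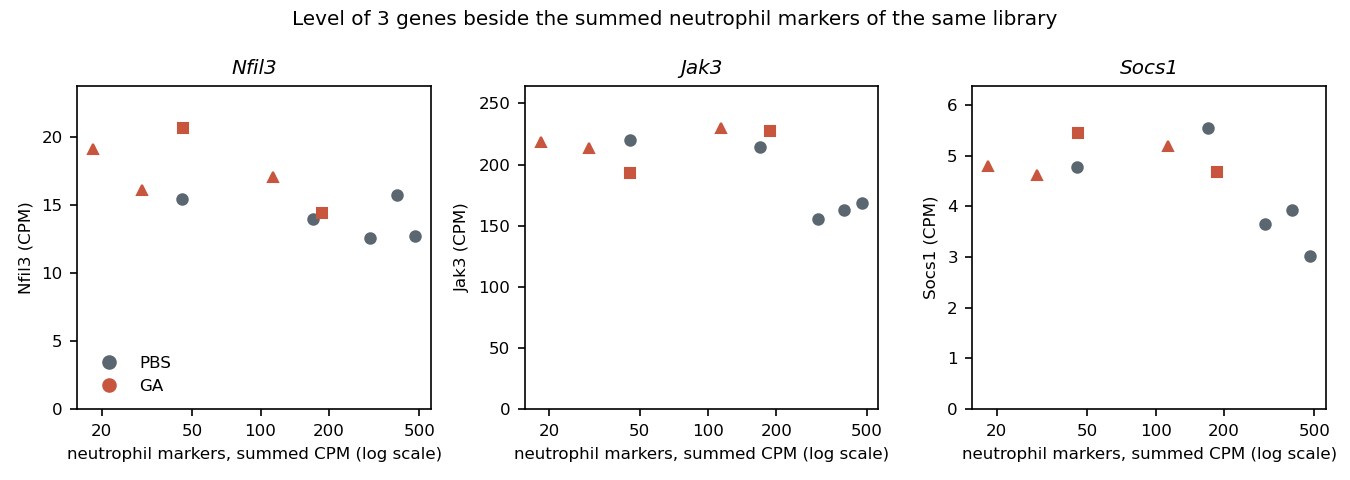
CPM of *Nfil3*, *Jak3* and *Socs1* (vertical axes, starting at 0) against the summed CPM of 10 neutrophil markers in the same library (horizontal axis, log scale). Each point is a library, coloured by treatment, with circles for prefix 388, squares for 394 and triangles for 400. The 3 PBS libraries with the highest sums (304 to 477 CPM) hold the least *Jak3* and *Socs1*, and the 3 genes were chosen for this plot after their values were seen.

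Promoter sequences of all 9 genes were found in RefSeq (GRCm38.p6, 250 bases before to 50 bases after the start). The 2 windows with matches to the motifs searched are shown, because they belong to the classical target that was almost uncounted and to the feedback inhibitor. Capitals in *Retnla* (chr16:48842359-48842658, plus strand) mark TTCACAAGAA, a match to TTC and GAA set 4 bases apart, the spaced palindrome that STAT6 prefers. Capitals in *Socs1* (chr16:10785487-10785786, minus strand) mark 2 overlapping matches to GAAA and GAAA set 2 bases apart, the core of the interferon response element.
*Retnla*: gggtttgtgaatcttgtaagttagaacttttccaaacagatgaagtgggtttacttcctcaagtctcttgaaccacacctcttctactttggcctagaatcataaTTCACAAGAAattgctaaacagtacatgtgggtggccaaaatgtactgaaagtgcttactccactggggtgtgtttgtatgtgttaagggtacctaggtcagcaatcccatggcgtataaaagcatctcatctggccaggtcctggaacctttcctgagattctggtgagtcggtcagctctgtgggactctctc
*Socs1*: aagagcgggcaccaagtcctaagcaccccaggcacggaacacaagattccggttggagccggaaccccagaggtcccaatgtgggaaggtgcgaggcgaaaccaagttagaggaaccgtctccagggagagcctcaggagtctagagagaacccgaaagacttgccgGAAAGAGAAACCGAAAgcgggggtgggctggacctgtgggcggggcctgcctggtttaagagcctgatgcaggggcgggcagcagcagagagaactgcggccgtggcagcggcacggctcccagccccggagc

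The *Retnla* match began 145 bases before the start. Its window also held AGGAAGT, read as ACTTCCT on the plus strand, 198 bases before the start. The *Socs1* matches, GAAAGAGAAA and GAAACCGAAA, began 83 and 77 bases before the start. On both strands of all 32851 promoters of this length, the first pattern occurred in 6.95%, the second in 3.44% and AGGAAGT in 9.35%. The other 4 motifs searched, TTCNNNGAA, TGACGTCA, TGANTCA and CACGTG, occurred in 8.30%, 1.79%, 7.81% and 7.15% of all promoters and in none of these 9 windows. A match shows that the letters are present and nothing about binding.

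The ligands were near the limit of detection in these cells. *Il13* was not counted in any library, which allows up to 3 counts per library, and *Il4* was counted 47 times over 9 of the 10 libraries. *Il13ra2*, the decoy receptor for IL-13, was counted 12 times, all in 1 PBS library. *Tslp*, an epithelial cytokine that promotes type 2 responses, was the only gene of this list tested. It stood at 3.78 ± 2.08 CPM in PBS and 2.72 ± 2.06 CPM in GA, a log2 fold change of -0.47 with an edgeR adjusted p of 0.949. Without 1 library it ran from -0.19 (without GA 3) to -0.95 (without GA 5).

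The signalling partners of the receptor differed little on average. Of 15 genes in this list (other Janus kinases, adaptors, phosphatases and suppressors), 13 were tested, 0 were called in either direction and 0 had an unadjusted p under 0.05. Their log2 fold changes ran from -0.13 to 0.18, with a median of 0.03. *Ptpn6*, which encodes the phosphatase SHP-1 that dampens cytokine receptor signals, had both the smallest p and the highest level per length of the list. It stood at 573 ± 30.5 CPM in PBS and 616 ± 38.8 CPM in GA, a log2 fold change of 0.10 with an edgeR adjusted p of 0.895. With prefix 394 alone it was 0.02, and with prefix 400 alone 0.16 (edgeR, unadjusted p = 0.0379). *Jak1*, the kinase bound to the IL-4 receptor alpha chain, stood at 402 ± 44.3 and 394 ± 26.4 CPM.

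Of 6 receptor chains that pair with the common gamma chain, 3 were tested, with 0 called, 0 with an unadjusted p under 0.05 and a median log2 fold change of 0.03. *Il21r*, the receptor chain for IL-21, had the smallest p and the highest level per length, at 55.8 CPM per kilobase. It stood at 192 ± 12.9 CPM in PBS and 180 ± 13.5 CPM in GA (log2 fold change -0.09, edgeR adjusted p = 0.910), with log2 fold changes of -0.18 for prefix 394 alone and -0.03 for prefix 400 alone. *Il2ra*, *Il2rb* and *Il9r*, chains of the IL-2 and IL-9 receptors, were counted 132, 2 and 2 times in all and were not tested.

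Of 27 further targets of alternative activation, 18 were tested. None was called (0 higher and 0 lower), 5 were higher and 13 lower on average in GA, and the median log2 fold change was -0.09. The log2 fold changes ran from -2.23 to 0.57. *Chil3*, which encodes the chitinase-like protein Ym1, was the only one with an unadjusted p under 0.05. It ranged from 0.687 to 32.3 CPM in PBS and from 0.404 to 10.8 CPM in GA, with a log2 fold change of -2.23 ± 0.83 and an edgeR adjusted p of 0.847. The log2 fold change was -3.04 without GA 2 and -1.47 with the GA libraries of prefix 394 alone, and its unadjusted p was 0.0968 in limma-voom, 0.0625 in the robust edgeR fit and 0.160 with prefix 394 alone. *Chil3* is also made by monocytes and neutrophils and is on the monocyte marker list used here, of which all 7 genes tested, *Chil3* itself among them, were lower on average in GA (median log2 fold change -1.28, 3 with an unadjusted edgeR p under 0.05). That list, *Chil3* included, summed to 42.6 to 168 CPM in PBS and 48.0 to 100 CPM in GA. The neutrophil list, which does not hold *Chil3*, had all 10 genes lower on average in GA, with a median log2 fold change of -1.79 and 8 with an unadjusted edgeR p under 0.05, and summed to 45.2 to 477 CPM in PBS and 18.4 to 187 CPM in GA. The part of either cell type in the *Chil3* values was not tested. All 8 border-associated macrophage markers were also lower on average in GA (median log2 fold change -0.30, 0 called). *Mrc1* and *Clec10a* are both on that list and among the 27 targets. The part of such macrophages in the levels of the targets was not tested. *Tgm2*, a transglutaminase induced by IL-4, had the highest level per length of these targets (40.7 CPM per kilobase) and stood at 186 ± 13.8 CPM in PBS and 189 ± 22.4 CPM in GA.

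**Figure D5:**
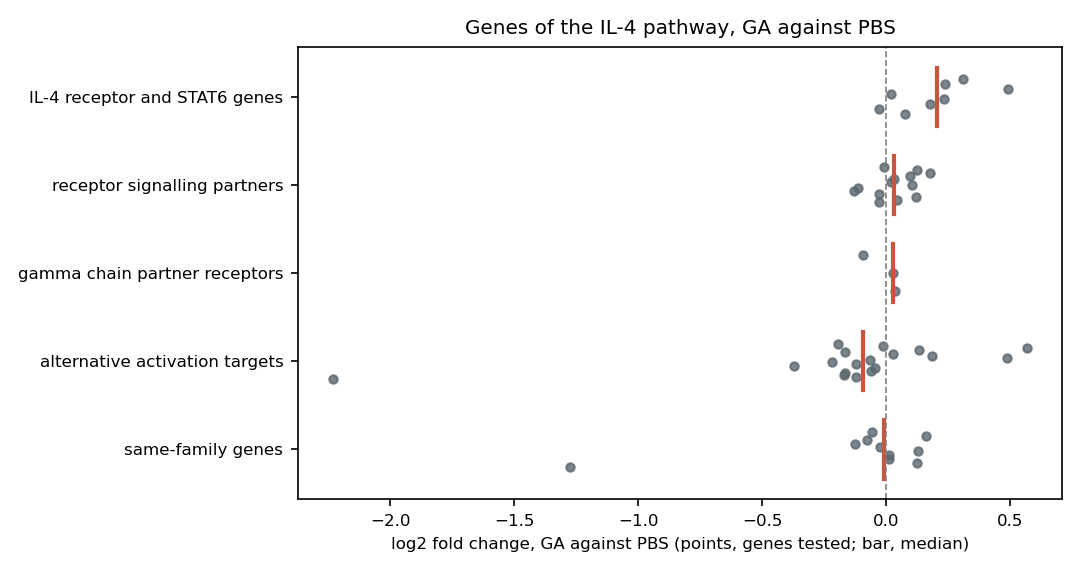
Log2 fold change of GA against PBS from edgeR (horizontal axis) of the genes tested in 5 lists, each point a gene and each bar the list's median. The medians lie between -0.09 and 0.20, and the points farthest left are *Chil3* at -2.23 and the neutrophil gene *Retnlg*.

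Close relatives of these genes gave a mixed picture of presence and absence. Of 13 such genes, 10 were tested, with 0 called, 0 with an unadjusted p under 0.05, and a median log2 fold change of -0.01. Of the relatives of *Retnla*, *Retnlb* was not counted in any library and *Retn* was counted 3 times in all. *Retnlg*, which is also on the neutrophil list, stood at 4.94 ± 4.22 CPM in PBS and 2.03 ± 2.17 CPM in GA (log2 fold change -1.27, edgeR adjusted p = 0.895). Without GA 2 its log2 fold change was -2.14, with an edgeR p of 0.00826 before and 0.526 after adjustment, and without PBS 3 it was -0.88. With prefix 394 alone it was -0.68 (edgeR, unadjusted p = 0.499), and with prefix 400 alone -1.85 (edgeR, unadjusted p = 0.0254).

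Among the other STAT genes, *Stat3* stood at 329 ± 22.6 CPM in PBS and 332 ± 9.84 CPM in GA. *Stat5b* stood at 90.6 ± 9.27 and 99.0 ± 5.54 CPM, *Stat2* at 75.7 ± 4.40 and 82.6 ± 19.3 CPM, and *Stat5a* at 26.9 ± 1.92 and 27.1 ± 2.25 CPM. *Stat4* was counted 65 times in all. *Irf8*, the relative of *Irf4* that microglia need for their development, had the highest level per length of the relatives and stood at 968 ± 66.3 CPM in PBS and 951 ± 12.6 CPM in GA. *Irf2* stood at 93.1 ± 7.59 and 85.4 ± 2.31 CPM. *Socs6* had the smallest p of the relatives, at 81.8 ± 8.09 CPM in PBS and 91.5 ± 7.32 CPM in GA, with a log2 fold change of 0.16 and an edgeR p of 0.0666 before and 0.875 after adjustment. Without 1 library the unadjusted edgeR p ran from 0.0154 (without PBS 3) to 0.173 (without GA 4), and it was under 0.05 also without GA 3 (0.0445). *Socs4* and *Socs7* averaged 12.8 and 5.97 CPM in PBS and 12.1 and 5.74 CPM in GA.

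Genes whose log2 CPM followed *Il4ra* or *Stat6* most closely over the 10 libraries were sought among the other 14480 genes tested. For *Il4ra* they were *Stk4* (Pearson r = 0.908, Spearman rho = 0.939), *Fer1l5* (0.907 and 0.915) and *Ldlrad4* (0.907 and 0.842). Without PBS 5 and GA 2, the libraries farthest from the median of *Il4ra*, the Pearson values were 0.821, 0.792 and 0.868. For *Stat6* they were *Jund* (0.912 and 0.915), *Gm38342* (0.894 and 0.782) and *Meox1* (0.888 and 0.891). Without GA 2 and PBS 2 these became 0.916, 0.723 and 0.859 by Pearson. *Gm38342* and *Meox1* averaged only 0.371 and 0.487 CPM. These are the highest of 14480 values each, the libraries differ in depth and treatment, and no test is attached.

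Exons of 4 of the 9 genes overlap another annotated gene, and the strand setting of the read counting is not given in the sources used here. *Il2rg* shares 728 exon bases (30.5% of its own) with *Gm20489* on the same strand, which was counted 0 times. Over the 1659 bases that it does not share, a length chosen after seeing the data and as if no read was counted on the shared ones, *Il2rg* would average 7.93 CPM per kilobase in place of 5.51. *Nfil3* would then exceed it in 6 of 10 libraries, and *Il13ra1* would exceed it 7.80- to 14.9-fold. Which reads were counted there is not known. *Jak3* shares 404 bases (7.55%) with *Insl3*, which was counted 33 to 124 times per library, 1.04% of the reads of *Jak3*. *Stat6* shares 40 bases with *Nab2* on the opposite strand, which was counted 604 to 944 times per library. *Il4ra* shares 571 bases with the antisense gene *Gm44876*, which was counted 0 to 7 times.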

How the data were processed

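The authors sequenced SMARTer-amplified RNA of sorted cells and deposited raw counts of reads per gene, without normalization. The submitters' processing notes name bcl2fastq 2.19.0, fastp 0.20.0, STAR 2.7.0f, Subread 1.6.4 with featureCounts, DESeq2 and GRCm38.p6. The strand setting and annotation are not given in the sources used here. All 10 columns were matched to samples by title, and 0 columns were left over. No pair of the 45 pairs of libraries was a copy (chi-square per degree of freedom 14.0 to 55.7).

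The genes, the lists and the rule for naming genes were chosen with earlier results of these data known. The rule named all 9 genes, in each pathway list the gene with the smallest p and the one with the highest level per length, every relative of the 9, and 3 genes most like *Il4ra* and *Stat6*; *P2ry12*, *Siglecf*, *Epx*, *Jak1*, *Il4*, *Il13*, *Il13ra2*, *Il2ra*, *Il2rb* and *Il9r* were named in addition. Some genes of these sets are not reported here. Genes were filtered with filterByExpr (minimum count 10), scaled by TMM and tested for GA against PBS with edgeR 4.0.16 (quasi-likelihood, two-sided, Benjamini-Hochberg over all 14481 genes, threshold 0.05) in R 4.3.3. Single genes were compared by exact permutation (252 arrangements) of mean log2(CPM + 0.1) with scipy 1.17.1, without adjustment over the 9 genes. Correlations were taken on log2(CPM + 0.1) of genes and of marker sums. Gene positions and merged exon lengths came from the GENCODE annotation of GRCm38. Alternatives were DESeq2 1.42.0, limma-voom (limma 3.58.1), robust fits, other scalings and filters, each library left out, either GA prefix alone, and title numbers as a block. A length of *Il2rg* without shared exon bases was added after seeing the data. Each tool was run on simulated counts with larger changes than any of the genes described had. That run does not show whether changes as small as theirs could be called.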

Additional observations from a re-analysis of the deposited data

Results flagged for a closer look

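In 7 of 64 groups of 5 libraries, the library farthest out stood apart by Dixon's ratio, its gap to the nearest library divided by the range of the group (critical value 0.71). Chance flags about 1 in 20 such groups. *Il4ra* in PBS 5 had a ratio of 0.731, with 341 CPM beside 297 CPM in the next library. *Stat6* in GA 2 had a ratio of 0.863, with 402 CPM beside 339.8 CPM. The ratio was 1 for *Retnla* in PBS 2 (0.0896 CPM, with the others at 0) and in GA 3 (0.0289 CPM). It was also 1 for *Retn* in PBS 1 (0.0262 CPM) and in GA 5 (0.0514 CPM). These 4 values rest on 1 to 3 reads each. The summed level of border-associated macrophage markers in GA 4 had a ratio of 0.717, with 192 CPM beside 90.1 CPM in the next GA library.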

How the results depend on the processing

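None of the 9 genes was called under any alternative run. The number of genes called over the whole table was 0 except with DESeq2 (2) and in the fits that left out 1 library (0 to 1, the 1 without GA 1). The count of the 9 genes with an unadjusted p under 0.05 was 2 (beside 5.75% of all genes), and became 1 with library totals only (5.57%), 0 with the GA libraries of prefix 394 alone (3.24%), 1 with the title number as a replicate block (6.79%), and 0 to 2 without 1 library (0 without GA 3, 1 without PBS 3, PBS 4, GA 2 or GA 5), beside 4.04% (without GA 3) to 7.72% (without PBS 5) of all genes. Those genes were not always *Nfil3* and *Jak3*. They were *Irf4* without PBS 3, *Jak3* and *Irf4* without GA 1, and *Nfil3* and *Il4ra* without PBS 5. The title numbers did not pair the libraries (correlations of deviations from -0.12 to 0.05 between same-numbered libraries). Numbers 4 and 5 occur only in PBS, so PBS 4 and PBS 5 add nothing to the GA effect in a fit with title numbers as a block. In that fit the edgeR log2 fold change was 0.39 for *Il2rg* (unadjusted p = 0.0546), 0.13 for *Il4ra*, 0.10 for *Jak3* (unadjusted p = 0.309), 0.15 for *Socs1*, 0.30 for *Irf4*, 0.06 for *Ptpn6*, 0.14 for *Socs6* (unadjusted p = 0.152), -1.36 for *Chil3* (unadjusted p = 0.261) and -0.63 for *Retnlg* (unadjusted p = 0.433). The number of the 9 genes whose groups did not overlap was 0 (beside 0.891% of all genes), and 1 with prefix 400 alone (4.82%) and 0 to 1 without 1 library (*Nfil3*, without GA 2, beside 2.39%). Signs of the edgeR log2 fold change turned for *Il13ra1* (0.0109 with the replicate block and -0.0699 to 0.0443 without 1 library, positive without PBS 5), *Il2rg* (-0.0944 with prefix 394 alone) and *Stat6* (-0.0340 with prefix 400 alone, -0.0168 without PBS 2, and -0.0373 to 0.0427 without 1 library, lowest without GA 2). The differences of mean log2 CPM behind the permutation tests turned sign without 1 library for *Il13ra1* (0.0405 without PBS 5), *Stat6* (-0.0206 without PBS 2 and -0.0354 without GA 2) and *Retnla* (0.0732 without PBS 2). The cause of these shifts was not tested. Of the remaining values, 189 under other settings and 257 without 1 library kept their direction and their side of the threshold. *Retnla* is limited by depth, with at most 3 reads per library.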
